A study of Mus musculus with 8 samples.

Results

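Cholesterol synthesis and its control by the SREBP transcription factors were followed in cultured mouse mast cells through 30 genes chosen by symbol, out of 24059 gene symbols counted. All 30 were present and all passed the filter on low counts, as did 14934 genes in all. They comprise 8 genes of the mevalonate steps, 11 of the sterol steps, 7 that control SREBP and 4 of sterol transport and storage. The cells were bone marrow–derived mast cells (BMMCs), which were grown from C57BL/6 bone marrow with IL-3 for at least 4 wk. They were then electroporated with Cas9-gRNA ribonucleoproteins (RNPs) that carried either a scrambled, non-targeting guide or guides against *Zc3h12a*, the gene of the RNase Regnase-1. Resting cells were lysed 1 wk later for poly(A) RNA sequencing. The study used bone marrow of 4 mice, and 4 samples per RNP carry replicate numbers 1 to 4, so samples of the same number were compared as a pair. The labels give the genotype as Zc3h12a WT for scrambled RNP and Zc3h12a KO for *Zc3h12a* RNP, and do not name the sex of the mice, which the methods describe as a few weeks old. Each sample is a pool of transfected cells, not a clone, and no selection of edited cells is described.

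Cells make cholesterol from acetyl-CoA. The mevalonate steps build farnesyl and geranylgeranyl diphosphate, the sterol steps join farnesyl units into squalene and close and trim the sterol rings, and the same intermediates feed prenylated proteins, dolichol and ubiquinone. When the membrane of the endoplasmic reticulum holds enough sterol, INSIG proteins keep SCAP and the SREBP precursors there. When sterol is scarce, SCAP escorts SREBP to the Golgi, where site-1 and site-2 proteases release the part that enters the nucleus and activates genes of this pathway, *Insig1* among them. Mast cells carry the IgE receptor in cholesterol-rich membrane, and lysosomal NPC1 and NPC2 return the cholesterol that cells take up from lipoproteins.

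The total count was 19610240 to 33986762 with scrambled RNP and 23712029 to 28564062 with *Zc3h12a* RNP. Mast cell genes fixed as markers (10 genes, *Kit*, *Fcer1a*, *Cpa3* and others) summed to 51065 to 60924 CPM, that is, counts scaled to a common library size after TMM normalisation, with scrambled RNP and to 49227 to 52176 with *Zc3h12a* RNP. Of these 10 genes, 9 passed the filter on low counts. Marker sums of other blood cells were 8.66 to 11.9 CPM for macrophages, at most 5.62 for T cells, 3.71 for erythroid cells, 0.693 for B cells and 0.333 for neutrophils, and no marker present was at 0 in all samples. Basophil markers summed to 445 to 541 CPM. The mast cell, basophil, neutrophil and erythroid sums were each lower in 3 of 4 pairs and the T cell sum in 1, the macrophage and B cell sums were higher in all 4 pairs, and their part in the results below was not tested. Scrambled RNP replicate 2 stood apart at -121 on the first principal component, which held 65.7% of the variance, and scrambled RNP replicate 4 lay at its other end (74.7). The mRNA of *Zc3h12a* itself was at 34.8 ± 6.65 CPM (SD, n = 4) with scrambled RNP and 33.2 ± 5.91 with *Zc3h12a* RNP, so that it does not check which samples were edited.

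The pathway was expressed at every step, at levels that differed widely between genes when scaled to length. Among scrambled RNP samples, *Npc2* was highest at 59.8 ± 8.90 CPM per kilobase of exon (SD, n = 4), followed by *Insig1* at 44.3 ± 9.13. *Hmgcs1* (31.9 ± 4.99), *Srebf2* (30.006 ± 7.46) and *Cyp51* (27.2 ± 3.55) came next and were within their spread of one another. The lowest were *Tm7sf2* (1.46 ± 0.427), *Acat2* (1.62 ± 0.672), *Insig2* (1.65 ± 0.484) and *Mbtps2* (1.86 ± 0.106), which were not set apart from each other by their spread either. Within the synthesis enzymes, *Hmgcs1* and *Cyp51* were the most abundant per kilobase, *Sqle* had 17.7 ± 2.67, and *Mvk*, *Hsd17b7* and *Fdps* had 2.52 ± 0.467, 3.76 ± 1.82 and 4.43 ± 2.11. The order after *Zc3h12a* RNP began with the same pair of genes, *Npc2* (49.2 ± 1.29) and *Insig1* (33.7 ± 5.60), and ended with *Tm7sf2* (1.15 ± 0.309). Exon lengths were the union of all annotated exons, so that genes with many long transcript variants appear lower on this scale. Of the fragments of 50 bases in its transcripts, 25.6% were shared with *Acat3* for *Acat2*, 23.4% with *Yy2* for *Mbtps2*, 19.7% with a pseudogene, Idi1-ps1, for *Idi1*, 17.3% with *Vps51* for *Tm7sf2* and 10.9% with Gm3571 for *Fdps*. The counts of these genes are therefore uncertain. The strand setting of the counting is not given in the sources used here, and antisense exons of *Ctsb*, *Akap9* and Gm51557 cover 24.8% of *Fdft1*, 21.1% of *Cyp51* and 20.5% of *Mvd*.

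**Figure D1:**
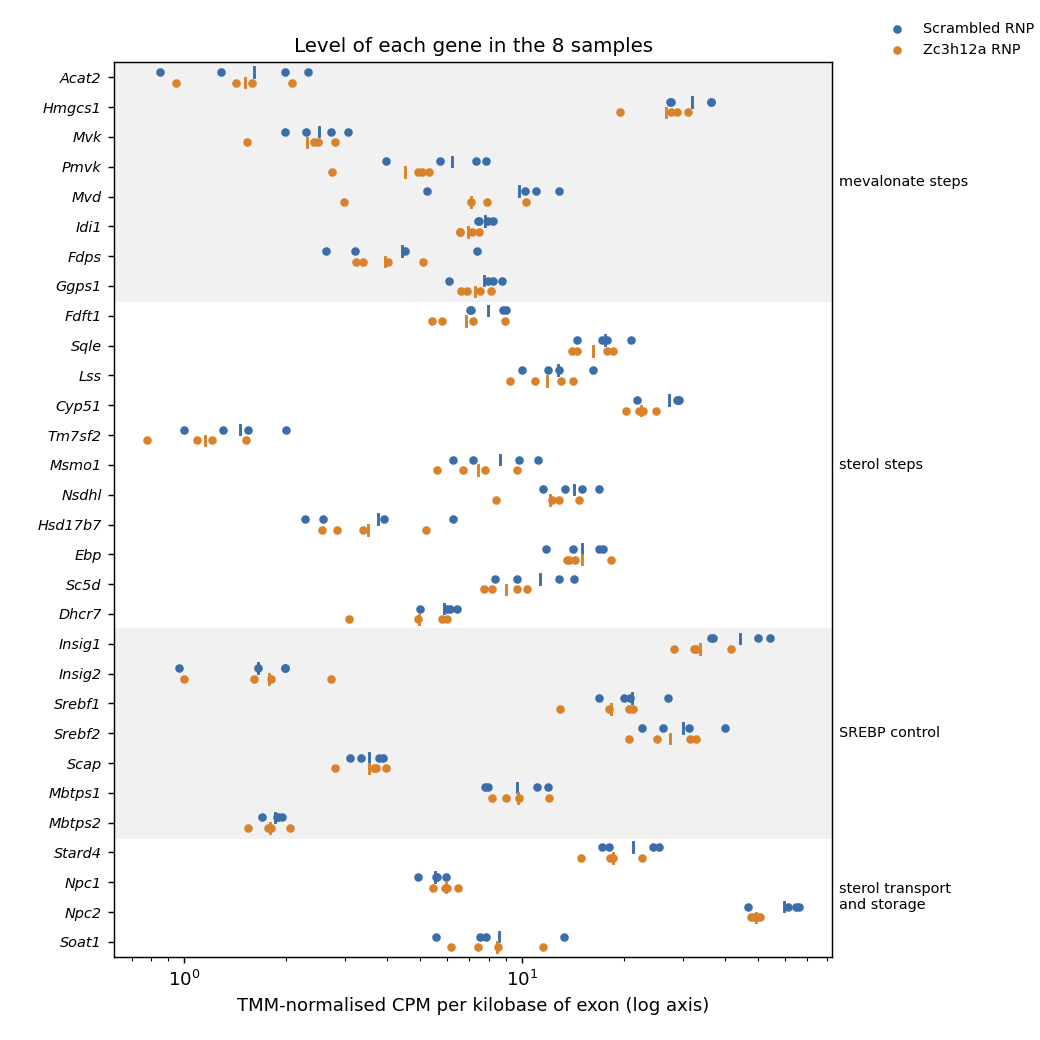
Level of the 30 genes in each of the 8 samples, as TMM-normalised CPM per kilobase of exon on a log axis. Points are samples and short vertical lines are group means, blue for scrambled RNP and orange for *Zc3h12a* RNP. The levels run from near 1 for *Tm7sf2* to about 60 for *Npc2*, and the colours overlap in all 30 genes.

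The promoters of these genes show which of them carry the short elements that SREBP and its partners are known to use. RefSeq windows (GRCm38.p6) of 300 bases, from 250 before to 50 after the start, were found for 25 of the 30 genes, 33 windows in all. Both strands were searched for TCACNCCAC, the core of a classical sterol regulatory element, for CCAAT, bound by NF-Y, for GGGCGG, bound by Sp1, and for CACGTG, an E-box that SREBP-1 can also bind. At least 1 CCAAT was found for 21 of 25 genes (84.0%), against 41.1% of 27025 genes with a window, and GGGCGG for 22 of 25 (88.0%), against 38.2%. All 9 sterol step genes with a window had both. Counted by window, the shares were 66.7% against 37.4% for CCAAT and 78.8% against 35.7% for GGGCGG. The genes with a window were not limited to those expressed in these cells. The genes with no CCAAT were *Acat2*, *Scap*, *Mbtps1* and *Mbtps2*. CACGTG was in windows of 5 genes (20% against 8.09%), namely *Hsd17b7*, *Sc5d*, *Dhcr7*, *Insig1* and *Scap*. The strict sterol element was found only in *Hmgcs1*, starting 137 bases before the start site, against 1.44% of all genes. A match describes the letters of the window and is not a measured binding site.

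Windows of 4 genes with a CCAAT and of 2 without are printed here 5′ to 3′ on the gene's strand, because the first 4 were among the 10 genes with an unadjusted p at or under 0.05 in the comparison that follows, and the other 2 code for parts of the SREBP machinery whose fitted change was near 0. Each matched 1 place in GRCm39, *Hmgcs1* at chr13:120151637-120151936 (plus strand), *Mvd* at chr8:123170112-123170411 (minus), *Cyp51* at chr5:4154648-4154947 (minus), *Insig1* at chr5:28276160-28276459 (plus), *Scap* at chr9:110162106-110162405 (plus) and *Mbtps1* at chr8:120285451-120285750 (minus). Capitals mark matches to the 4 motifs in either direction, where ATTGG is CCAAT and CCGCCC is GGGCGG read on the other strand. No capitals belong to more than 1 motif. The *Scap* window lies at a start inside the annotated gene, which begins at 110158229.
Hmgcs1: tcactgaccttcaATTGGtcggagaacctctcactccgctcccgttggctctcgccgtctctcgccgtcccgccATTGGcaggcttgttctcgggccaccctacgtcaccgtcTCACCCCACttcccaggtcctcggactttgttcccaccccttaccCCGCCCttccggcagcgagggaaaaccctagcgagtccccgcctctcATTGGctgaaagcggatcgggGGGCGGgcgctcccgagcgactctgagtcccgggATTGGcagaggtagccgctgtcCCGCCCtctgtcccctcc
Mvd: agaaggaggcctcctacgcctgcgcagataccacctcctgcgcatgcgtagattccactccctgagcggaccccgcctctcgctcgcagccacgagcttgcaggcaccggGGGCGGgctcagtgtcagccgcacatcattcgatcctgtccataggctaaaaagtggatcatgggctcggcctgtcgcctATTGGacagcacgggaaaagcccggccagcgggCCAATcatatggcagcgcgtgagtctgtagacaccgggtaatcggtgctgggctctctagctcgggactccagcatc
Cyp51: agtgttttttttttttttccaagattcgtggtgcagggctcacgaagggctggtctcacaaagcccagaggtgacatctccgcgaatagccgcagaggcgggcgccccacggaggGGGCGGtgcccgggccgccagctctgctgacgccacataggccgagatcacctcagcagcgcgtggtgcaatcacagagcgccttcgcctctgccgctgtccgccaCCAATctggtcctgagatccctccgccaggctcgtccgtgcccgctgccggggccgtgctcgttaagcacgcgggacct
Insig1: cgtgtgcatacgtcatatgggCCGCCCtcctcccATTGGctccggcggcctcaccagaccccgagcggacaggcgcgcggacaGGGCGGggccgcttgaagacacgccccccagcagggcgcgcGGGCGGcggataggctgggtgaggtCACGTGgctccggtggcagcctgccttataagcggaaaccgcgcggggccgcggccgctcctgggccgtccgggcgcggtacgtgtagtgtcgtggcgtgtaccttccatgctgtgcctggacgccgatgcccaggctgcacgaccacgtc
Scap: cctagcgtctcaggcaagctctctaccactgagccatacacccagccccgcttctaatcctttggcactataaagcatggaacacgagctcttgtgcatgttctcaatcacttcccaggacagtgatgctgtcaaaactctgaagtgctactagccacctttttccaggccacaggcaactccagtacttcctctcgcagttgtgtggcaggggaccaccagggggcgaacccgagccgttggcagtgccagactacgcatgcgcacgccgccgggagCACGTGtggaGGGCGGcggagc
Mbtps1: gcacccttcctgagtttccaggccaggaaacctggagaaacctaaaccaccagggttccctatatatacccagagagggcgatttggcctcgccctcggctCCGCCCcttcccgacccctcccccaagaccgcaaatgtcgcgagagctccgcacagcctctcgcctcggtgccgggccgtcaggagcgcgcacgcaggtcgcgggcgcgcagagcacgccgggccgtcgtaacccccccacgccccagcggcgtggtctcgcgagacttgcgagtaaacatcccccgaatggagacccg

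The *Hmgcs1* window holds 4 CCAAT boxes and 3 GC boxes around its sterol element, and that of *Mvd* has 2 CCAAT boxes close together before the start. *Insig1* has 1 CCAAT box, 3 GC boxes and 1 E-box. *Mbtps1* has a single GC box and *Scap*, at this start, 1 E-box beside 1 GC box. Another *Scap* window, not printed, holds 3 GC boxes and 1 E-box. The printed genes were picked in part by their fitted change, so these windows do not show how motifs relate to it.

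**Figure D2:**
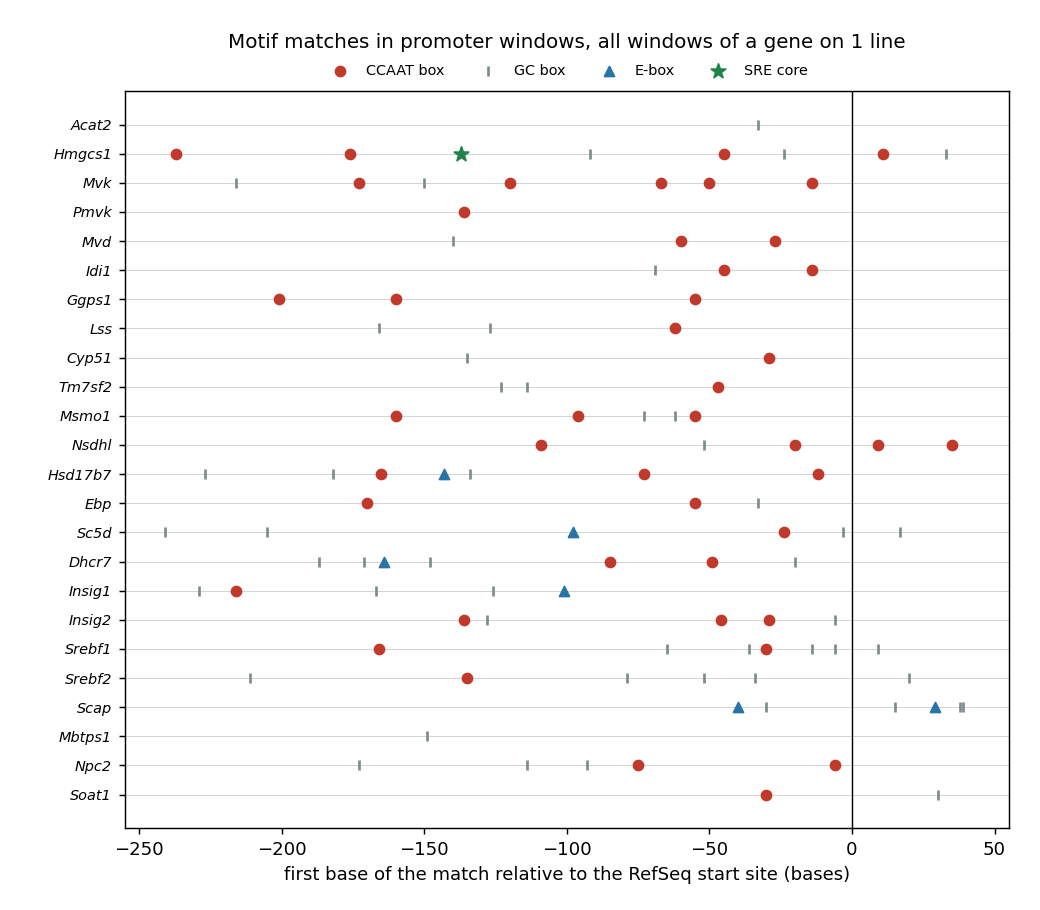
Position of motif matches relative to the RefSeq start site for the 24 genes with any match, in bases, with all windows of a gene on 1 line. Red circles are CCAAT, grey ticks GGGCGG, blue triangles CACGTG and the green star TCACNCCAC. Most of the CCAAT matches lie before the start (42 of 45), as do 250 of the 300 bases of each window.

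The comparison of *Zc3h12a* RNP with scrambled RNP addressed which transcripts differ in resting cells when the gene of Regnase-1 is targeted. None of the 30 genes passed a log2 fold change beyond 0.5 and an adjusted p at or under 0.05 in the quasi-likelihood test of edgeR, blocked on replicate number. The background was the same, with 0 of 14934 genes called (0%). The lowest adjusted p among the 30 was 0.449 (Benjamini-Hochberg, over all genes tested). DESeq2 also called 0 of the 30, against 0.582% of the genes for which it gave an adjusted p, and at any fold 0 were lower in it at an adjusted p at or under 0.05, against 0.670%. Limma-trend after removal of the replicate effect called 1, *Mvd*, against 0.757% of all genes. At any fold, 5 of the 30 were lower at an adjusted p at or under 0.05 in that limma-trend reading. The share of all genes for this was not counted. The adjusted p was 0.0147 for *Insig1*, 0.0211 for *Cyp51*, 0.0257 for *Pmvk*, 0.0269 for *Sc5d* and 0.0274 for *Mvd*. Each of the 5 missed 0.05 in every other alternative run. The reading does not count the replicate effect in its degrees of freedom, which lowers its p-values. At an unadjusted p at or under 0.05, 16 of the 30 and 11.4% of all genes were lower in it. In the blocked edgeR test, 10 of the 30 genes were lower at an unadjusted p at or under 0.05 and 0 higher. Of all genes tested, 4.05% were lower and 2.12% higher at that p. The 30 genes were chosen with earlier results of these data known. Their shares beside those of all genes, here and below, are therefore description and not a test. The count of 10 varied with the samples used. It was 0 without replicate 1 (0.927% of all genes), 2 without replicate 2 (1.72%), 5 without replicate 3 (3.23%), 11 without replicate 4 (2.63%) and 0 with no replicate block (0.596%). Without replicate 1, fitted values of the 10 genes were below 0. They were -0.42 for *Mvd*, -0.39 for *Pmvk*, -0.29 for *Dhcr7*, -0.27 for *Insig1* and -0.14 to -0.21 for the other 6. These 10 were picked by the fit to all samples, which holds the pairs kept here, so their sign is no separate check. Fitted values below 0 were found for 25 of 30, against 42.2% of all genes, with a median log2 fold change of -0.15 against 0.038. Without replicate 1 the median was -0.064 (18 of 30 below 0), against 0.089 over all genes. Without replicate 2 it was -0.072 (19 of 30), against 0.036 over all genes. In bulk RNA, fewer cells of a type and less RNA per cell cannot be told apart.

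Differences within pairs were uneven. Of the 30 genes, 27, 26, 18 and 15 were lower after *Zc3h12a* RNP in pairs 1 to 4, against 45.9%, 48.8%, 49.1% and 55.7% of all genes. The median difference of the 30 genes was -0.32, -0.24, -0.12 and 0.0043 in pairs 1 to 4 on the log2 scale. Over all genes tested it was 0.027, 0.0089, 0.0076 and -0.059. Altogether 9 of the 30 genes were lower in all 4 pairs (8.54% of all genes were) and 0 were higher in all 4 (4.98%), the 9 being *Pmvk*, *Mvd*, *Idi1*, *Cyp51*, *Tm7sf2*, *Nsdhl*, *Sc5d*, *Dhcr7* and *Insig1*. For no gene of the 30 did the CPM of the groups fail to overlap, as happened for 0.924% of all genes. The 95% interval of the log2 fold change lay within 0.5 of 0 in both directions for 21 genes and reached below -0.5 for the other 9. The 30 genes together took 0.295%, 0.251%, 0.218% and 0.271% of all counts in scrambled RNP replicates 1 to 4 and 0.251%, 0.229%, 0.210% and 0.266% in *Zc3h12a* RNP replicates 1 to 4.

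**Figure D3:**
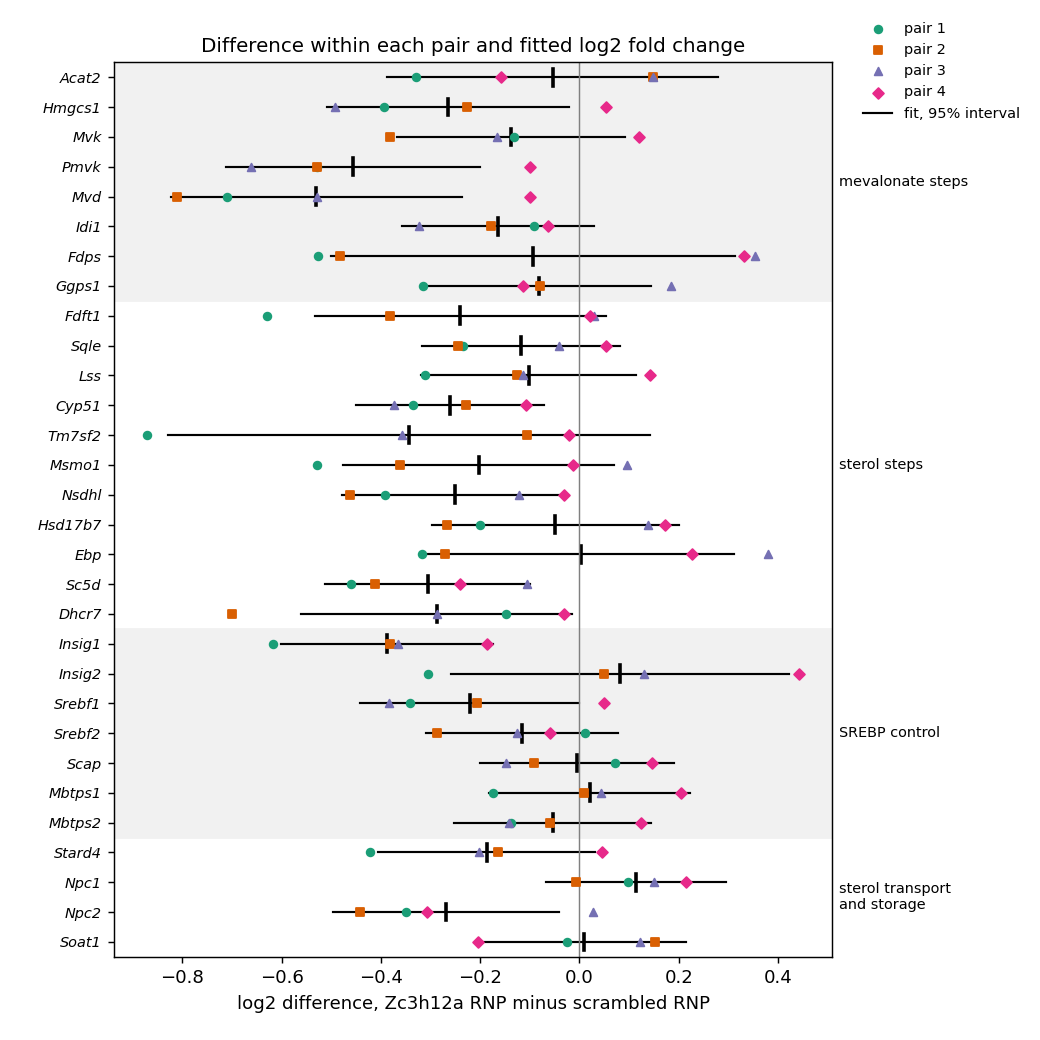
Difference of log2 CPM, *Zc3h12a* RNP minus scrambled RNP, within each of 4 pairs (coloured symbols) and the fitted log2 fold change with its 95% interval (black), for 30 genes by step. Symbols of pairs 1 and 2 lie mostly left of 0, those of pairs 3 and 4 on both sides, and 10 intervals end below 0.

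The mevalonate steps had fitted values below 0 in all 8 genes, with a median of -0.15 and medians per pair of -0.36, -0.30, -0.24 and -0.082. At an unadjusted p at or under 0.05 there were 3 of them, and at an adjusted p of 0.05 none. *Mvd*, on chromosome 8 (123160336 to 123170324, GRCm39), makes isopentenyl diphosphate by decarboxylation. It was at 35.3, 14.3, 27.9 and 30.03 CPM in scrambled RNP replicates 1 to 4 and 21.5, 8.10, 19.3 and 28.015 CPM in *Zc3h12a* RNP replicates 1 to 4. It was lower in every pair, least in pair 4, yet the groups overlapped, and both replicate 2 samples were far below the rest. Its log2 fold change of -0.53 (standard error 0.13, 95% interval -0.82 to -0.24) was the only one of the 30 beyond 0.5, with unadjusted p = 0.00340 and adjusted p = 0.449 in edgeR. *Pmvk*, the kinase that acts just before it, lies on chromosome 3 (89361758 to 89376323). It had 28.02, 15.2, 29.96 and 21.9 CPM with scrambled RNP and 19.4, 10.5, 18.9 and 20.4 CPM with *Zc3h12a* RNP. Again every pair was lower and both replicate 2 samples were lowest. Its log2 fold change was -0.46 (standard error 0.11, unadjusted p = 0.00366, adjusted p = 0.452 in the same edgeR test).

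*Hmgcs1*, the HMG-CoA synthase that starts the committed part of the pathway, was at 191, 191, 145 and 146 CPM after scrambled RNP and at 145, 163, 103 and 151 CPM after *Zc3h12a* RNP. It lies on chromosome 13 (120151915 to 120170470). It was lower in pairs 1 to 3 and slightly higher in pair 4. Its log2 fold change was -0.26 (standard error 0.10, unadjusted p = 0.0367, adjusted p = 0.762 in edgeR's test). *Idi1*, which isomerises isopentenyl diphosphate, had the tightest levels of the 30 genes with scrambled RNP, at 26.4 to 29.1 CPM, and lay at 23.2 to 26.5 CPM with *Zc3h12a* RNP. It was lower in all 4 pairs by a small amount, -0.064 to -0.32, with a fitted value of -0.16 (standard error 0.083). *Mvk*, the first kinase of mevalonate, had -0.14 (standard error 0.098) and was lower in 3 pairs. *Fdps*, the farnesyl diphosphate synthase, had 36.0, 22.1, 12.9 and 15.7 CPM after scrambled RNP and 25.0, 15.8, 16.5 and 19.7 CPM after *Zc3h12a* RNP. Its first 2 pairs were lower (-0.53 and -0.48), its last 2 higher (0.35 and 0.33), and the fit gave -0.094 with a 95% interval from -0.50 to 0.31. *Ggps1*, the branch to geranylgeranyl diphosphate, and *Acat2*, a thiolase that joins acetyl-CoA units, had fitted values of -0.082 and -0.054, with mixed signs across pairs.

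Sterol step genes were lower in 10 of 11 by their fitted values, with a median of -0.24 and medians per pair of -0.33, -0.27, -0.11 and -0.013. An unadjusted p at or under 0.05 was found for 4. *Sc5d*, the lathosterol desaturase, had 87.7, 79.3, 51.1 and 59.3 CPM with scrambled RNP and 63.7, 59.6, 47.5 and 50.2 CPM with *Zc3h12a* RNP. The difference had one sign in all pairs, and the largest differences were in replicates 1 and 2, where its level was highest. Its log2 fold change was -0.31 (standard error 0.088, unadjusted p = 0.00931, adjusted p = 0.618 in edgeR's test). *Cyp51*, the lanosterol demethylase, was at 172, 174, 170.5 and 129.8 CPM after scrambled RNP and 136, 148, 132 and 120.5 CPM after *Zc3h12a* RNP. Apart from scrambled RNP replicate 4, which was far below the other scrambled RNP samples, the values of the groups did not meet. Its log2 fold change was -0.26 (standard error 0.081, unadjusted p = 0.0133, adjusted p = 0.656).

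*Dhcr7*, the last reductase of one branch, had 52.6, 41.0, 49.3 and 50.2 CPM after scrambled RNP and 47.5, 25.2, 40.4 and 49.1 CPM after *Zc3h12a* RNP. Pair 2 alone contributed a difference of -0.70, while pair 4 had -0.030. *Nsdhl*, a dehydrogenase of the C4 demethylation complex, had a fitted value of -0.25 (standard error 0.097) and *Dhcr7* one of -0.29 (standard error 0.12), where edgeR gave unadjusted p = 0.0342 and 0.0410 and adjusted p = 0.752 and 0.772. The enzymes around squalene had intervals that included 0. *Sqle*, the squalene epoxidase, was at 187, 154, 129 and 159 CPM after scrambled RNP and 159, 129.7, 125 and 165 CPM after *Zc3h12a* RNP, a fitted value of -0.12 with an interval from -0.32 to 0.083. *Lss*, which closes the rings to lanosterol, had -0.10 (-0.32 to 0.11), and *Fdft1*, which makes squalene, -0.24 (-0.53 to 0.053) with pair differences of -0.63, -0.38, 0.028 and 0.022. *Msmo1*, the C4 oxidase, had -0.20 (standard error 0.12). *Tm7sf2*, a sterol reductase at 3.82 to 9.89 CPM, was lower in all 4 pairs, but by -0.87 in pair 1 and -0.022 in pair 4. *Hsd17b7*, the 3-keto reductase, had -0.048 (standard error 0.11). *Ebp*, the sterol isomerase, had the same mean in both groups (61.5 ± 10.7 and 61.5 ± 9.29 CPM, SD, n = 4), with pairs 1 and 2 lower and pairs 3 and 4 higher.

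SREBP control genes had fitted values below 0 in 5 of 7, with a median of -0.054, and *Insig1* was the only one lower in all 4 pairs. *Insig1* lies on chromosome 5 (28276315 to 28283668) and codes for the retention protein whose own gene is an SREBP target. It had 245, 264, 178 and 179 CPM with scrambled RNP and 159.5, 203, 138 and 157 CPM with *Zc3h12a* RNP. All pairs were lower, pair 1 most and pair 4 least, and the groups met because *Zc3h12a* RNP replicate 2 was above scrambled RNP replicates 3 and 4. Its log2 fold change of -0.39 (standard error 0.091, 95% interval -0.60 to -0.17) had the lowest unadjusted p of the 30 genes, 0.00326, and an adjusted p of 0.449 in edgeR's test. *Insig2*, its paralog, which is not held to follow nuclear SREBP in the same way, was at 11.8, 5.73, 9.80 and 11.8 CPM after scrambled RNP and 9.54, 5.94, 10.7 and 16.1 CPM after *Zc3h12a* RNP. Its fitted value was 0.081 with an interval from -0.26 to 0.42. Per kilobase, *Insig1* exceeded *Insig2* by 25.2, 56.0, 22.0 and 18.4 times in scrambled RNP replicates 1 to 4 and by 20.3, 41.5, 15.6 and 11.8 times in *Zc3h12a* RNP replicates 1 to 4. This ratio was lower in 4 of 4 pairs, with an exact two-sided sign-flip p of 0.125, the smallest that 4 pairs allow. It was among 4 ratios formed after the levels were seen, and it restates the values of both genes given above.

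The SREBP genes themselves were abundant. *Srebf2*, which mainly drives cholesterol synthesis, was at 292, 373, 212 and 245 CPM with scrambled RNP and 294, 306, 194 and 235 CPM with *Zc3h12a* RNP. *Srebf1*, which leans toward fatty acid genes and is also a target of the liver X receptor, was at 159, 123, 100.014 and 119 CPM and at 126, 106.947, 76.6 and 123 CPM. *Srebf1* was lower in pairs 1 to 3 with a fitted value of -0.22 (standard error 0.095, unadjusted p = 0.0499995, adjusted p = 0.810 in edgeR's test), and *Srebf2* had -0.12 (standard error 0.083). Per kilobase, *Srebf2* was at 1.15 to 1.91 times *Srebf1* with scrambled RNP and at 1.21 to 1.80 times with *Zc3h12a* RNP, and this ratio was higher in 2 pairs and lower in 2. The genes of the transport and cleavage machinery lay near 0 in the fit. *Scap*, the sterol sensor and escort, had -0.0045 with an interval from -0.20 to 0.19, *Mbtps1*, the site-1 protease, 0.021 (-0.18 to 0.22) and *Mbtps2*, the site-2 protease, -0.054 (-0.25 to 0.14). Of the 25 genes with a promoter window, the 21 with a CCAAT had a median log2 fold change of -0.22, from -0.53 to 0.081, and the 4 without had -0.029, from -0.054 to 0.021. These 3 machinery genes are among the 4, so the motif and the role of the gene cannot be told apart here. A gene counted as having a motif if any of its windows held it. The 5 genes with a CACGTG had a median of -0.29 and the other 20 of -0.15, and the 22 with a GGGCGG had -0.18 and the other 3 -0.082. No test was made of these differences.

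Transport and storage genes had 2 fitted values below 0 and 2 above. *Npc2*, a soluble lysosomal protein that hands cholesterol to NPC1, lies on chromosome 12 (84801334 to 84820617). It was at 396, 407, 287 and 376 CPM after scrambled RNP and 311, 299, 292 and 304 CPM after *Zc3h12a* RNP. The latter lay within a narrow range (SD 7.92 against 54.5), near the lowest scrambled RNP sample. The log2 fold change was -0.27 (standard error 0.098, unadjusted p = 0.0267, adjusted p = 0.705 in edgeR's test). *Npc1*, the membrane partner, had 63.9, 68.0, 56.2 and 63.7 CPM and then 68.4, 67.6, 62.3 and 73.9 CPM, a fitted value of 0.11 (standard error 0.077), higher in 3 of 4 pairs. The ratio of *Npc2* to *Npc1* per kilobase was 9.50 to 11.5 with scrambled RNP and 7.65 to 8.73 with *Zc3h12a* RNP, and these ranges did not meet. It was lower in 4 of 4 pairs, with an exact sign-flip p of 0.125 (two-sided), again the smallest possible. This was 1 of 4 ratios formed after the levels were seen. The CPM of either gene alone overlapped between the groups, and how often ratios of other genes separate was not counted. *Stard4*, a carrier of sterol between membranes and an SREBP target, had -0.19 (standard error 0.094) and was lower in 3 pairs. *Soat1*, which esterifies cholesterol for storage, was at 80.4, 59.5, 83.6 and 142 CPM and at 79.0, 66.1, 91.0 and 123 CPM, with a fitted value of 0.0096 (-0.20 to 0.22).

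Levels varied widely between replicates. Among scrambled RNP samples the highest level was 1.51 times the lowest in the median gene, from 1.10 times for *Idi1* to 2.79 times for *Fdps*, and for 29 of 30 genes this range was wider than the fitted change. The deviations of samples of the same number from their group means, across the 30 genes, had correlations of 0.52, 0.92, 0.67 and 0.85 for numbers 1 to 4, and those of unlike numbers at most 0.30. Genes are not independent replicates. Replicate 2 had the highest of these correlations. Relative to the mean of the other 3 replicates, *Mvd* was at -1.11 (scrambled RNP) and -1.48 (*Zc3h12a* RNP) on the log2 scale, *Acat2* at -1.08 and -0.82, *Insig2* at -0.95 and -0.98, *Pmvk* at -0.80 and -0.90 and *Soat1* at -0.73 and -0.54. In the other direction, *Hsd17b7* was at 1.14 and 0.84, *Srebf2* at 0.59 and 0.36, *Mbtps1* at 0.44 and 0.42 and *Insig1* at 0.41 and 0.42. The sign of this deviation was alike under both RNPs in 24 of 30 genes, 13 lower and 11 higher. Scrambled RNP replicate 2 is the library at the end of the first principal component, and *Zc3h12a* RNP replicate 2, which is not, had the same pattern in these genes.

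**Figure D4:**
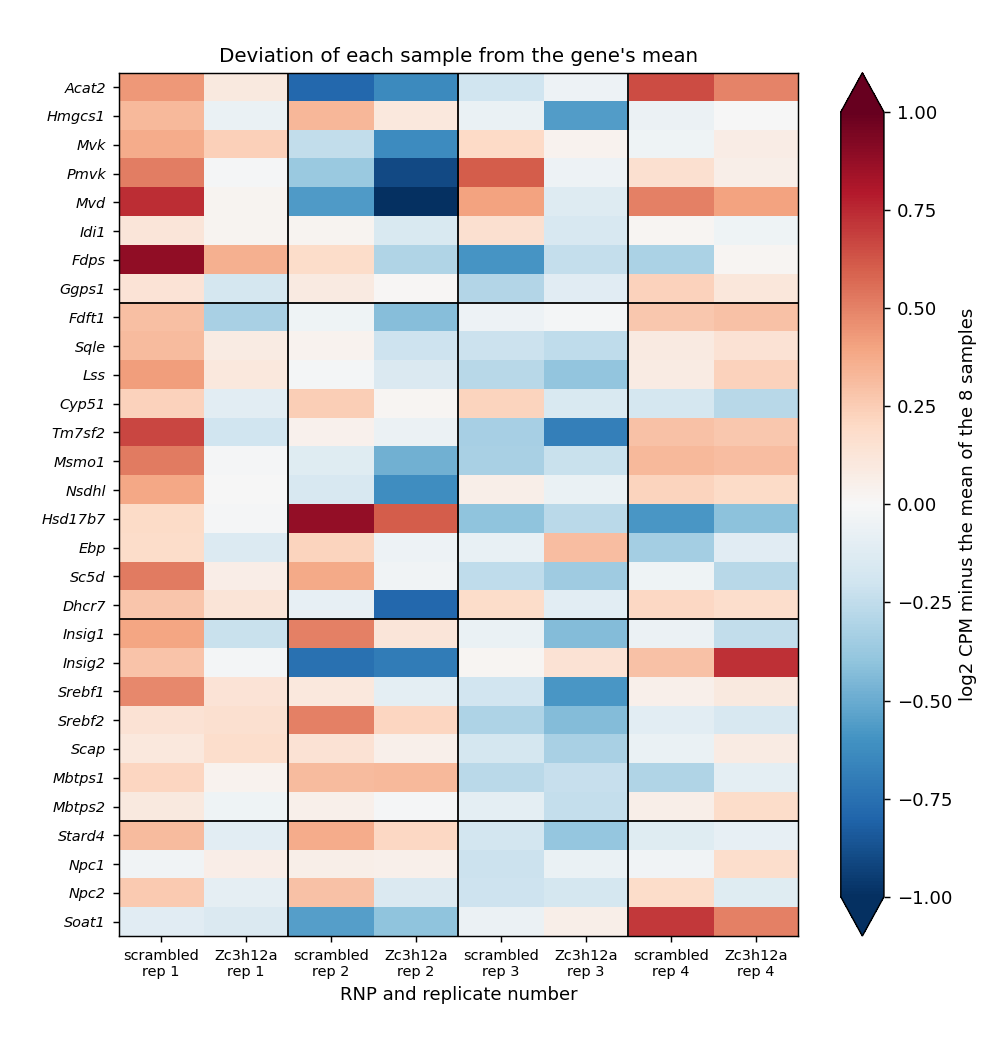
Deviation of log2 CPM from the gene's mean over 8 samples, with columns paired by replicate number and rows by step, red above and blue below the mean, colours ending at 1 in either direction. The columns of replicate 2 share dark blue for *Acat2*, *Mvd* and *Insig2* and red for *Hsd17b7*, and scrambled RNP replicate 1 is red in nearly all genes.

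Scrambled RNP replicate 1 was the sample in which the pathway stood highest. The median deviation of the 30 genes from their means was 0.31 there, 0.40 for the mevalonate steps and 0.32 for the sterol steps, against -0.026 over all genes tested. *Zc3h12a* RNP replicate 1 was at -0.0061, and the lowest samples were both of replicate 3, at -0.18 and -0.20.

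Other genes around the pathway, from lists written beside the members, had values on both sides of 0. Of 63 listed, 61 were present and 56 passed the filter, and 24 were lower and 32 higher by their fitted values, with a median of 0.022. At an unadjusted p at or under 0.05, 2 were lower and 1 higher, and 0 had an adjusted p at or under 0.05 by edgeR or were called in any alternative. *Rnf145*, a ubiquitin ligase of the endoplasmic reticulum, had 83.0, 108, 48.4 and 66.5 CPM after scrambled RNP and 61.9, 98.1, 44.0 and 50.1 CPM after *Zc3h12a* RNP. It was lower in every pair (fitted value -0.28, standard error 0.087, adjusted p = 0.660). *Cyb5a*, the cytochrome that passes electrons to sterol and fatty acid enzymes, was lower in all pairs too (-0.24, standard error 0.082, adjusted p = 0.686). *Acss2*, which makes acetyl-CoA from acetate and is known as an SREBP target, was the one with the opposite sign, at 143 ± 13.8 CPM and 169.9 ± 25.9 CPM (SD, n = 4), higher in 4 of 4 pairs (0.24, standard error 0.089, adjusted p = 0.718). The 12 genes of the isoprenoid branches, such as *Fnta*, *Pggt1b* and *Dhdds*, which use what the mevalonate steps make, had a median of 0.068 with 10 higher and none at an unadjusted p at or under 0.05. The 18 tested genes of sterol transfer and lipoprotein receptors had a median of 0.014, and the 10 of sterol sensing and protein degradation 0.061. The 5 genes of SREBP cofactors (*Nfya*, *Nfyb*, *Nfyc* and *Sp1*) and SREBP turnover (*Fbxw7*) had a median of -0.076.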

How the data were processed

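Poly(A) libraries of 8 samples, 4 per RNP, were sequenced by the authors as paired-end reads, aligned with HISAT2 2.2.1 to GRCm39 and counted per gene with featureCounts 2.0.1. The deposited values are raw counts, as whole numbers without normalization or batch correction. From these counts, edgeR 4.0.16 (R 4.3.3) was used with TMM normalization, its filter on low counts by group and a quasi-likelihood test over all genes with the replicate number as a block, and p-values were Benjamini-Hochberg adjusted. The call rule was an adjusted p at or under 0.05 together with a log2 fold change beyond 0.5. Standard errors are the fold change divided by the root of F, and log2 CPM used a prior count of 2. Depth was 19610240 to 33986762 counts. The test was also run on simulated counts. The outcome of that run is not given here, so it does not show how well the test finds small changes between these samples. The block rests on the series' design text, which gives 4 mice. A batch correction is named in the study's methods, but not what the batch was. Over all genes tested, deviations of same-numbered samples had correlations of 0.595, 0.0752, 0.624 and 0.0414, where unlike numbers reached 0.398, so that pairs 2 and 4 did not stand out. Over 9668 genes with a mean log2 CPM above 2 they were 0.717 to 0.756, and at most 0.137 for unlike numbers. All samples of a group differed beyond counting noise (chi-square over degrees of freedom at least 53.6). The labels do not tie numbers to mice. The p-values of the blocked test measure the spread between these samples that is left once replicate levels are fitted.

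Alternatives were DESeq2 1.42.0, limma-trend (limma 3.58.1), no block, the replicate effect removed first, other normalizations and filters, and leaving out each replicate. Positions and exon lengths come from GENCODE vM39 (GRCm39). The named genes are all 30 members, *Zc3h12a*, and from wider lists those with an unadjusted p at or under 0.05 and examples. Members and lists were chosen with earlier results of these data known. Marker genes not in the tables used were not analysed here. Figures were drawn with matplotlib 3.10.9.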

Additional observations from a re-analysis of the deposited data

Results flagged for a closer look

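Each gene's 4 samples per RNP were examined for 1 value far from the other 3, by the gap to the nearest value divided by the whole range. Of 60 groups, 3 had such a sample, where chance gives about 3. For *Pmvk* in *Zc3h12a* RNP replicate 2 (10.5 CPM, nearest 18.9) the ratio was 0.849, for *Cyp51* in scrambled RNP replicate 4 (130 CPM, nearest 170) it was 0.930, and for *Ebp* in *Zc3h12a* RNP replicate 3 (75.3 CPM, nearest 58.8) it was 0.833.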

How the results depend on the processing

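Over all genes tested, the number called was 60 with DESeq2, 1 with limma-trend, 113 (34 higher, 79 lower) after removal of the replicate effect before limma-trend, 1 with DESeq2's size factors, 40 with no low-count filter and 3 with at least 10 counts in every sample. Leaving out a replicate gave 0 to 137, the latter without replicate 2 and 2 without replicate 4. Among the 30 genes, 1 was called, *Mvd* after removal of the replicate effect (-0.54), and 0 under every other alternative run. That reading leaves the residual degrees of freedom as if no replicate effect had been fitted, which lowers its p-values. With no replicate block, 0 genes were called, and 0 of the 30 had an unadjusted p at or under 0.05, against 10 with it. Other counts of lower genes among the 30 at that p were 16 after removal of the replicate effect (11.4% of all genes), 7 with DESeq2 (3.33%), 6 with its size factors (3.19%), 5 with library size only (1.90%) and 3 with no low-count filter (1.0097%). The count was 10 with limma-trend (4.06%), with upper quartile (3.56%) and with at least 10 counts in every sample (6.20%).

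The median of the SREBP control genes turned to 0.014 with library size only, which moved the median of all genes from 0.038 to 0.11. Leaving out each replicate gave medians of -0.23 to -0.077 for the mevalonate steps, -0.34 to -0.064 for the sterol steps, -0.11 to 0.013 for SREBP control -0.16 to 0.0016 for transport and storage and -0.23 to -0.064 for the 30 genes. The sterol step median was -0.064 without replicate 1, against -0.24 in full. Over all genes the median was 0.089, 0.036, -0.019 and 0.020 without replicates 1 to 4, against 0.038 in full. Single genes near 0 changed sign. *Ebp* was at -0.017 with DESeq2, -0.0015 with no replicate block, -0.017 with DESeq2's size factors and -0.012 with at least 10 counts, and *Soat1* at -0.010, -0.024, -0.0099 and -0.0059. *Mbtps1* was at -3.5e-05 with DESeq2. *Scap* was at 0.00093 with no replicate block, 0.064 with library size only, 0.0073 with upper quartile and 0.028 with no filter. *Acat2*, *Hsd17b7* and *Mbtps2* were at 0.013, 0.021 and 0.014 with library size only. Without a given replicate, values ran from -0.17 to 0.091 for *Acat2*, -0.29 to 0.11 for *Fdps*, -0.22 to 0.041 for *Ggps1*, -0.18 to 0.012 for *Lss*, -0.16 to 0.092 for *Hsd17b7*, -0.054 to 0.085 for *Scap*, -0.11 to 0.019 for *Mbtps2*, -0.22 to 0.00050 for *Mvk*, -0.17 to 0.0035 for *Srebf2*, -0.18 to 0.16 for *Ebp*, -0.040 to 0.13 for *Mbtps1*, -0.080 to 0.083 for *Soat1*, -0.046 to 0.26 for *Insig2*. The cause of these changes was not tested. The lowest count of any of the 30 genes in a sample was 93 (*Tm7sf2*), and depth was not varied.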
